A study of Picea abies with 24 samples.

Results

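The transcripts described here are the 100 features on a cDNA microarray of Norway spruce (Picea abies) that gave the highest ratio of the asCCR line A78:3 over the transformed control line G88:5. A feature is 1 printed cDNA, spotted at 2 places on each slide, and the 5376 spots of a slide hold all features in this way. The members were chosen by measured log2 ratios. For each feature the ratio of A78:3 over G88:5 was averaged over the dye-swapped arrays of replicate 1 and, separately, of replicate 2. The smaller of those 2 values ranked the features, and the 100 highest were taken, 3.72% of all features. Every one of the 100 is therefore higher in A78:3 than in G88:5 in both replicates by choice, and the ratios of that pairing are given below without a test. No feature carries a gene name or a sequence in the files analysed here, so each member is called F followed by its 2 spot numbers.

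CCR, cinnamoyl-CoA reductase, catalyses the first step that is particular to the monolignols, the building blocks of lignin. Lignin stiffens and waterproofs the walls of wood cells. Embryogenic cultures of spruce are proliferating masses of early somatic embryos and are not a wood-forming tissue.

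The 6 lines were grown as embryogenic cultures and sampled 14 days after subculture. The asCCR lines were A78:3, A78:4 and A78:5, and the series title speaks of down-regulation of a gene encoding CCR. The transformed control lines were G88:5 and G88:9, and the untransformed line is named 95:88:22 in the sample titles, with another middle number in the series description. Each line gave 2 biological replicates, sampled from 3 Petri dishes, and thus 12 RNA extracts were compared on 24 arrays. Each replicate formed a loop of 6 pairings of an asCCR line with a control line, each hybridised again with the dyes exchanged. A ratio of A78:3 over G88:5 compares 2 single lines and not the asCCR lines with the control lines as classes. The levels of CCR and of markers of embryogenic tissue, which would check the labels, were not analysed here because no feature has a gene name.

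Arrays had median intensities between 556.9 and 6864. Precision is limited by the 2 biological replicates of each line, since the arrays repeat the same extracts. The log2 ratios of the paired spots of a feature correlated across features with r between 0.223 and 0.867 on an array. The 3 arrays with r under 0.3 were all among the 4 arrays of the G88:9 extract of replicate 1. In replicate 1 of A78:4 over G88:5, the array with A78:4 in Cy5 came with a copy of another array's scan, so its deposited log2 ratios could not be set against a scan of its own. Slide lots were inferred from separate ranges of the numbers in the sample titles, which name no lot. Arrays with A78:3 fell in the first lots and arrays with 95:88:22 in the second, so slide lot and these lines cannot be told apart.

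In the pairing that chose them, the members were higher in A78:3 by modest amounts. Their mean log2 ratio over both replicates had a median of 0.37, which is 1.29-fold, and ran from 0.23 to 0.73, or from 1.17-fold to 1.65-fold. None thus reached 2-fold. In replicate 1 the median of the members was 0.41, with quartiles of 0.30 and 0.54, and in replicate 2 it was 0.31, with quartiles of 0.27 and 0.39. The smaller ratio came from replicate 2 in 74 members and from replicate 1 in 26. Just 5 members were above 0.5 in both replicates. The member of rank 100 had a smaller replicate ratio of 0.2177 and the feature of rank 101 one of 0.2167, so the list ends within a continuum and not at a gap. Above 0 in both replicates were 37.1% of all features, and 4.5% were above 0.2 in both, as background to the 100 of 100 that the choice fixed. Below -0.2 in both were 7.4% of all features and, by choice, no member.

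The rule averaged the 4 single arrays of that pairing, so their values too are a description. In replicate 1 the members had a median log2 ratio of 0.52 with A78:3 in Cy5 and 0.35 with G88:5 in Cy5. In replicate 2 the medians were 0.32 with A78:3 in Cy5 and 0.35 with G88:5 in Cy5. On all 4 arrays 77 members were above 0, 18 were above 0 on 3 arrays and 5 on 2 arrays. The paired spots on these 4 arrays correlated across features with r from 0.375 to 0.822. A saturated spot occurred in 2 members, against 56 of all features.

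**Figure D1:**
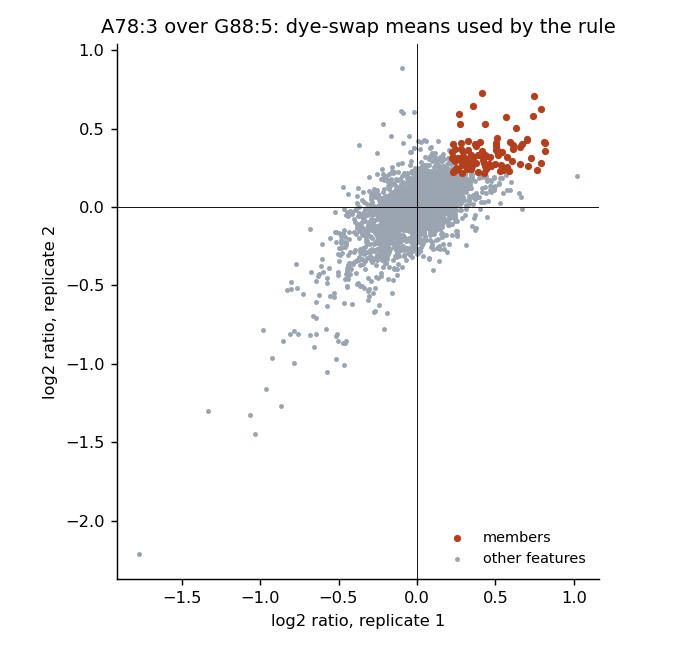
Log2 ratio of A78:3 over G88:5 of each feature, with the dye-swap mean of replicate 1 on the horizontal axis and of replicate 2 on the vertical axis. The 100 members (red) fill the upper right corner by choice, and the lowest of them lies at 0.2177 in its smaller replicate ratio, next to the remaining features (grey).

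The 2 members that led the list were F1400_1512 and F67_179. F1400_1512 had log2 ratios of A78:3 over G88:5 of 0.57 with A78:3 in Cy5 and 0.91 with G88:5 in Cy5 in replicate 1, and of 0.81 and 0.60 in replicate 2. All 4 arrays lay above 0.5, and the replicate means were 0.74 and 0.71. F67_179 had log2 ratios of 1.07 with A78:3 in Cy5 and 0.52 with G88:5 in Cy5 in replicate 1, and of 0.66 and 0.58 in replicate 2, with replicate means of 0.79 and 0.62. It too was above 0.5 on every array of the pairing.

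Those leading members differed in the pairings that share an extract with the rule. In A78:3 over G88:9, F1400_1512 had 0.75 in replicate 1 and 0.60 in replicate 2, and F67_179 had 0.58 and 0.33. Both were thus high in A78:3 beside either G88 line. In A78:4 over G88:5, F1400_1512 had 0.036 in replicate 1 and 0.73 in replicate 2, whereas F67_179 had -0.048 and -0.086. The replicates of F1400_1512 disagreed in that pairing, and F67_179 stayed near 0 in both.

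A78:3 over G88:9 uses the same A78:3 extracts as the rule, so the ratios of the members there are a description. The members were higher in A78:3 in this pairing too. Their median log2 ratio was 0.23 in replicate 1 and 0.23 in replicate 2, beside 0.0035 and 0.0097 for all features. On the 4 arrays the median of the members was 0.21, 0.30, 0.27 and 0.16. On an array 71 to 88 of the 100 were above 0, with a background of 48.4% to 51.3%. Above 0 in both replicates were 68 members, with a background of 21.4% of all features, and 2 were below 0 in both, with a background of 19%. Above 0.2 in both replicates were 25 members, with a background of 3.31%, and below -0.2 in both was none, with a background of 3.5%. All 4 arrays were above 0 in 39 members and in 6.62% of all features. The replicates of this pairing had an r of -0.252 across all features, and both arrays of replicate 1 were among the 3 with an r of paired spots under 0.3. The part of these arrays in the result was not tested, and replicate 2 alone gave a median of 0.23.

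Within the list this pairing ranged widely. The highest members by mean log2 ratio of A78:3 over G88:9 were F1400_1512 at 0.67 and F292_404 at 0.61. F292_404 had 0.56 in replicate 1 and 0.66 in replicate 2, and its lowest array had 0.39. The lowest were F2494_2606 at -0.14 and F4773_4885 at -0.022. F2494_2606 had -0.15 in replicate 1 and -0.13 in replicate 2, so this member was slightly lower in A78:3 than in G88:9.

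A78:4 over G88:5 uses the G88:5 extracts of the rule, and here the members showed no direction common to both replicates. Their median log2 ratio was 0.054 in replicate 1 and -0.13 in replicate 2. Above 0 were 72 members in replicate 1, with a background of 51.0%, and 33 in replicate 2, with a background of 46.4%. The members thus leaned up in replicate 1 and down in replicate 2. In both replicates 23 were above 0, with a background of 19.9%, and 18 were below 0, with a background of 22.5%. Both shares lay near the background. Above 0.2 in both were 2 members, with a background of 0.409%, and below -0.2 in both was none, with a background of 0.595%. The median over both replicates was -0.020 in A78:4 over G88:5, beside 0.21 in A78:3 over G88:9. The replicates lay on different slide lots, replicate 1 on the second and replicate 2 on the first, and the part of the lot was not tested.

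Single members went against that low median. F16_128 had the highest mean log2 ratio of A78:4 over G88:5 at 0.55, from 0.22 in replicate 1 and 0.89 in replicate 2. F4262_4374 followed at 0.47, from 0.23 and 0.72. Both were above 0 in each replicate but their replicates differed by more than the mean. At the low end F1611_1723 averaged -0.21, from 0.029 and -0.46, and F4551_4663 averaged -0.17, from -0.13 and -0.21.

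**Figure D2:**
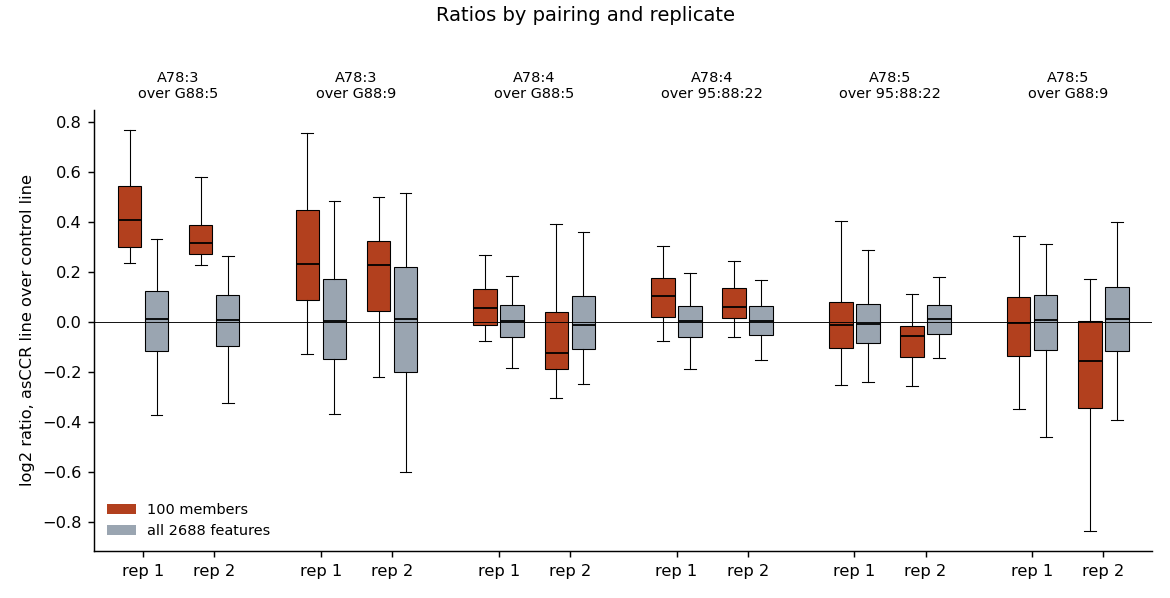
Log2 ratio of asCCR line over control line, as dye-swap means, in both replicates of the 6 pairings, for the 100 members (red) and all features (grey). Boxes give quartiles and median, and whiskers the 5th and 95th percentile; the member medians are 0.41 and 0.31 in A78:3 over G88:5, 0.23 and 0.23 in A78:3 over G88:9, and 0.10 and 0.060 in A78:4 over 95:88:22.

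The remaining 3 pairings hold neither A78:3 nor G88:5, and none of their extracts entered the choice of members. Each was tested on all features with limma, which compares the mean of 2 replicates with the spread between replicates pooled over the 6 pairings. That spread includes the replicate differences of A78:3 over G88:5, which the rule used, and the fit treats the 12 means as independent although each extract enters 2 pairings. With the spread of the tested pairing alone, limma also called 0 features in each. No feature was called in any of them at a Benjamini-Hochberg adjusted p under 0.05, and so the results below are counts and sizes without a called member. Unadjusted limma p-values under 0.05 were found for 22 features in A78:4 over 95:88:22, 320 in A78:5 over G88:9 and 31 in A78:5 over 95:88:22, where evenly spread p-values would give 134.4. Confidence intervals (95%) reached a median of 0.24 to either side on the log2 scale. Since the spread was pooled, the median standard error was 0.109 in each pairing. The SD of mean ratios over all features was 0.097 in A78:4 over 95:88:22, 0.096 in A78:5 over 95:88:22 and 0.198 in A78:5 over G88:9. The pooled spread thus made calls harder in the pairings with 95:88:22, and the counts are not comparable across the 3 pairings.

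In A78:4 over 95:88:22 most members lay above 0 in both replicates, by small amounts. Their median log2 ratio was 0.10 in replicate 1 and 0.060 in replicate 2, beside 0.0017 and 0.0051 for all features. Ratios of all features were also narrower in this pairing, with an SD of the mean over both replicates of 0.097. That SD was 0.183 in A78:3 over G88:9 and 0.195 in A78:3 over G88:5, so sizes are not directly comparable across pairings. Above 0 in both replicates were 72 of the 100, with a background of 32.6%, and below 0 in both were 10, with a background of 29.2%. Above 0.2 in both were 5 members, with a background of 0.632%, and below -0.2 in both were none, with a background of 0.595%. These counts set the members beside all features without a test of the list. By unadjusted limma p under 0.05, 1 member was higher, with a background of 0.595%, and 0 were lower, with a background of 0.223%.

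The arrays of this pairing differed by dye orientation. The members' median was 0.14 and 0.099 with A78:4 in Cy5, in replicates 1 and 2, and 0.046 and 0.012 with 95:88:22 in Cy5. All 4 medians were above 0, and the lowest was close to it. Over the 10 dye-swap pairs of the 5 pairings other than A78:3 over G88:5, the member median was higher with the asCCR line in Cy5 in 9, by up to 0.19. In the remaining pair the difference was -0.094. A dye effect cancels in a dye-swap mean only where it is the same on both arrays. Whether these differences are such an effect was not tested. All 4 arrays were above 0 in 27 members and in 8.30% of all features.

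The sizes behind the count were uneven among members. F4550_4662 had log2 ratios of A78:4 over 95:88:22 of 0.79 with A78:4 in Cy5 and 1.49 with 95:88:22 in Cy5 in replicate 1, and of 0.39 and 0.50 in replicate 2. All 4 arrays were above 0.3, and the mean was 0.79 (95% confidence interval 0.13 to 1.46; limma adjusted p = 1.00). F4343_4455 had 0.99 and 0.47 in replicate 1 and 1.09 and 0.012 in replicate 2, in the same order of dyes, with a mean of 0.64 (95% confidence interval -0.0052 to 1.29; limma adjusted p = 1.00). Its array with 95:88:22 in Cy5 of replicate 2 was near 0.

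At the other end stood the member that led the rule. F1400_1512 had replicate ratios of A78:4 over 95:88:22 of -0.070 and -0.17, a mean of -0.12 (95% confidence interval -0.43 to 0.19). F1894_2006 had -0.15 and -0.077, a mean of -0.12 (95% confidence interval -0.28 to 0.053). Neither passed the limma test, with an adjusted p of 1.00 for both.

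In A78:5 over G88:9 more members lay below 0 than above it. Their median log2 ratio was -0.0038 in replicate 1, with 51 members below 0, and -0.16 in replicate 2, with 73 below 0. Those above 0 numbered 49 and 27, with backgrounds of 52.7% and 53.0%. Below 0 in both replicates were 43 members, with a background of 26.8%, and above 0 in both were 19, with a background of 32.6%. Below -0.2 in both were 9, with a background of 5.39%, and above 0.2 in both was 1, with a background of 2.57%. By unadjusted limma p under 0.05, 18 members were lower, with a background of 7.11%, and 3 were higher, with a background of 4.8%. Those counts rested mainly on replicate 2: the member median was -0.0038 without it and -0.16 without replicate 1. The smallest limma adjusted p of a member was 0.353. Replicate 1 was on the first slide lots and held 1 of the 3 arrays with an r of paired spots under 0.3, and replicate 2 was on the second lot. The part of either in the difference between replicates was not tested.

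The lowest members by mean ratio had their large negative values in replicate 2, and both were bright, with a mean log2 intensity of 13.7 for F4550_4662 and 13.8 for F4745_4857. F4550_4662, highest of the members in A78:4 over 95:88:22, was lowest in A78:5 over G88:9, with -0.46 with A78:5 in Cy5 and -0.13 with G88:9 in Cy5 in replicate 1 and with -1.60 and -1.52 in replicate 2. Its mean was -0.93 (95% confidence interval -1.59 to -0.27; limma adjusted p = 0.353). F4745_4857 had -0.20 and 0.15 in replicate 1 and -1.30 and -1.95 in replicate 2, with a mean of -0.82 (95% confidence interval -1.60 to -0.043; limma adjusted p = 0.405). In both members the replicates differed by more than 1 on the log2 scale.

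The highest members of that pairing also rested on 1 replicate. F4742_4854 had 1.08 and 0.68 in replicate 1 and -0.051 and 0.0026 in replicate 2, with a mean log2 ratio of A78:5 over G88:9 of 0.43 (limma adjusted p = 0.390). F16_128 had 1.27 and 0.62 in replicate 1 and -0.24 and 0.053 in replicate 2, with a mean of 0.43 (limma adjusted p = 0.446). Without replicate 1 their ratios were -0.024 and -0.096.

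**Figure D3:**
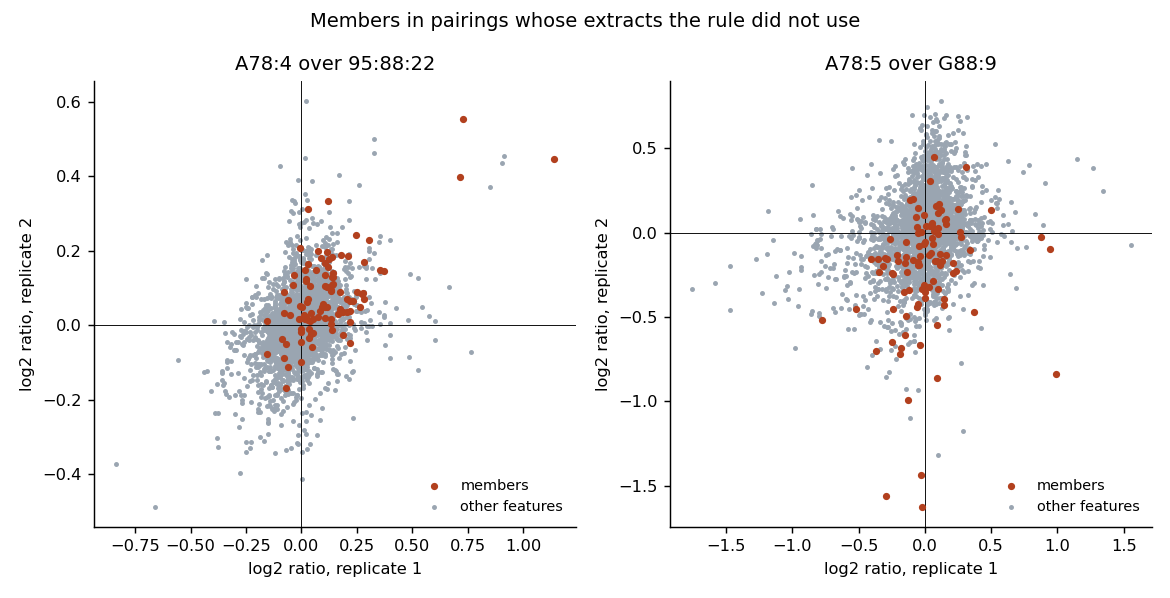
Log2 ratios of A78:4 over 95:88:22 (left) and of A78:5 over G88:9 (right), with replicate 1 on the horizontal and replicate 2 on the vertical axis, for the 100 members (red) and the other features (grey). On the left 72 members lie above 0 in both replicates, and on the right 43 lie below 0 in both.

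In A78:5 over 95:88:22 the members were near 0 or slightly lower. Their median log2 ratio was -0.012 in replicate 1 and -0.058 in replicate 2. Below 0 in both replicates were 38 members, with a background of 22.1%, and above 0 in both were 9, with a background of 23.4%. None of the members was beyond 0.2 in size in both replicates in the same direction, with a background of 0.707% above and 0.0744% below. By unadjusted limma p under 0.05, 2 members were higher, with a background of 0.744%, and 1 was lower, with a background of 0.409%.

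The extreme members of this pairing were of moderate size. F2299_2411 had replicate ratios of A78:5 over 95:88:22 of 0.57 and 0.15, a mean of 0.36 (95% confidence interval 0.080 to 0.64). F2746_2858 had 0.58 and 0.11, a mean of 0.34 (95% confidence interval 0.060 to 0.62). F2756_2868 had -0.27 and -0.094, a mean of -0.18 (95% confidence interval -0.35 to -0.021), and F2082_2194 had -0.24 and -0.13, a mean of -0.18 (95% confidence interval -0.41 to 0.047). All 4 had a limma adjusted p of 1.00, and in each the replicate 1 ratio was the larger in size.

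**Figure D4:**
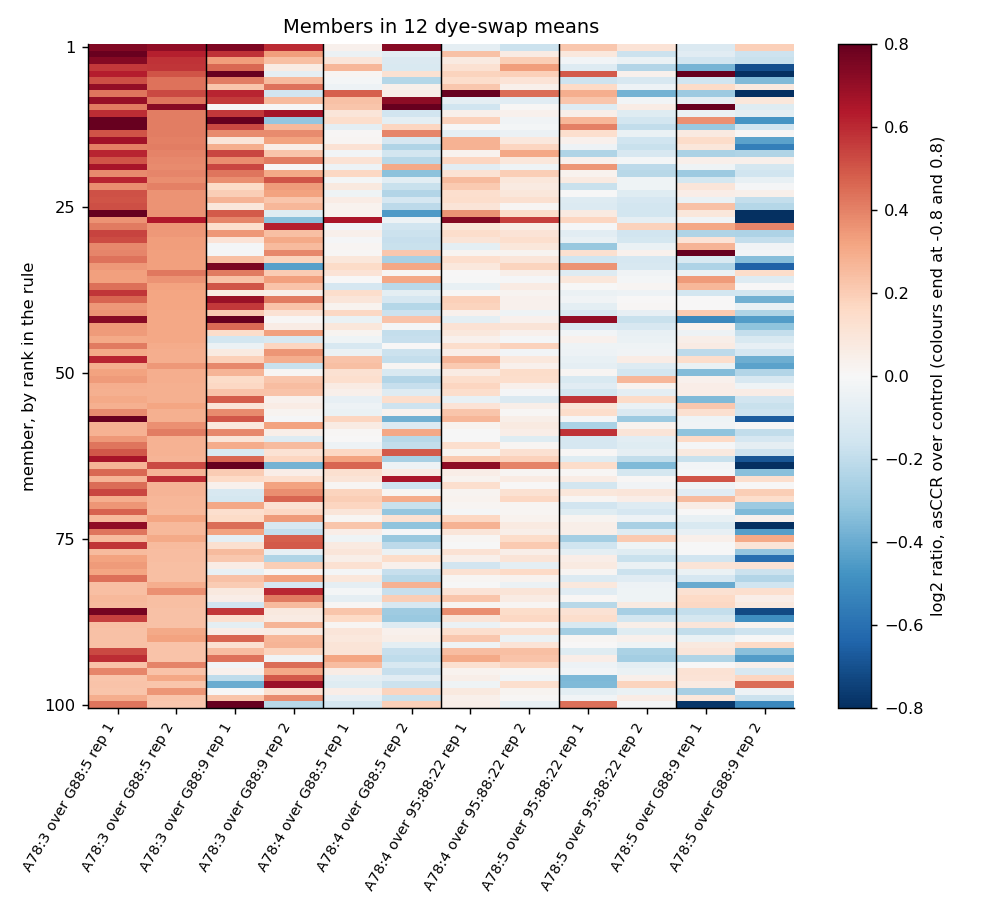
Log2 ratio of asCCR line over control line of each member (rows, by rank in the rule) in the 12 dye-swap means (columns), with red above 0 and blue below 0 and colours ending at -0.8 and 0.8. The first columns are red by choice, A78:3 over G88:9 is mostly red, with 68 members above 0 in both replicates, and replicate 2 of A78:5 over G88:9 holds the deepest blue.

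The loop design gives a further reading of A78:3 over G88:5 from the 20 arrays that the rule did not use. Adding and subtracting the ratios of the other 5 pairings round the loop leads from A78:3 to G88:5 through the other lines. The extracts and the contrast are those of the rule, so the values are a description. Through this path the members had a median log2 ratio of 0.16 in replicate 1 and 0.14 in replicate 2, beside -0.0047 and 0.010 for all features. The direct medians of 0.41 and 0.31 were larger. Above 0 in both replicates were 51 members, with a background of 24.6%, and below 0 in both were 8, with a background of 23.3%. The sum of 5 ratios is noisier than a single one, with an SD over all features of 0.49 and 0.28 in the 2 replicates, against 0.22 and 0.20 for the direct ratios.

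The leading members differed along this path. F1400_1512 had 1.18 in replicate 1 and 1.41 in replicate 2 through the other pairings, above its direct ratios of 0.74 and 0.71. F67_179 had 0.47 and 0.18, below its direct ratios of 0.79 and 0.62. F16_128 had -0.67 and 1.02, so its replicates were opposed along the path although both direct ratios, 0.41 and 0.73, were above 0.

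The members were correlated with each other over the pairings that did not choose them. Over the 10 dye-swap means of the other 5 pairings, the median correlation between 2 members was 0.388, beside -0.0078 between 2 of all features. Of the pairs of members 39.5% had an r above 0.5, and of all pairs 16.2%. The points share extracts, 4 of the 10 hold an extract of the rule, and these values are a description.

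Few members were among the dimmest features. Their mean log2 intensity on the 19 scanned arrays of the other pairings had a median of 10.7 and quartiles of 10.2 and 11.5, beside 10.4 and quartiles of 9.44 and 11.4 for all features. Of 4 equal groups of features from dim to bright, the dimmest held 5 members, the next 28, the one after it 41 and the brightest 26. Their paired spots differed by a median of 0.126 on the log2 scale on the arrays of the other pairings, against 0.120 for all features.

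Their place on the slide was uneven. The slide has 48 print blocks of 112 spots, and adjacent blocks repeat the same features, which gives 24 block pairs. Each block pair held between 1 and 10 members. Within a block, rows 5 and 6 held 49 members, where 25% of all features lie, and row 1 held 3. The position in row 5 and column 12 of the block held 8 members among its 24 features. The part of the place on the slide in the ratios was not tested beyond the values that follow.

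Features of row 6 that are no members had a median on the same side of 0 as the member median in all 6 pairings. Those of row 5, which held the most members, did not in A78:5 over G88:9, with 0.031 beside a member median of -0.057. In A78:3 over G88:5 the features of row 6 that are no members had a median log2 ratio of 0.051 and those of row 5 one of 0.017, against -0.037 in row 3, the lowest. In A78:4 over 95:88:22 the medians were 0.040 in row 6 and 0.0056 in row 5, against -0.021 in row 1, beside a member median of 0.082. In A78:3 over G88:9 row 6 had 0.042, the highest of the 8 rows, and in A78:5 over G88:9 it had -0.032, where the other rows were above 0. Row 6 had -0.011 in A78:4 over G88:5, beside a member median of -0.020. It had -0.0078 in A78:5 over 95:88:22, beside a member median of -0.041. When every array was centred on the median of each position in the block, an alternative chosen after seeing the data, 57 members were above 0 in both replicates of A78:4 over 95:88:22, with 30.7% of all features. Their median was then 0.071 in place of 0.082. In A78:3 over G88:9 the count was 65 under that centring, with 20.6% of all features, and the median was 0.18 in place of 0.21.

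**Figure D5:**
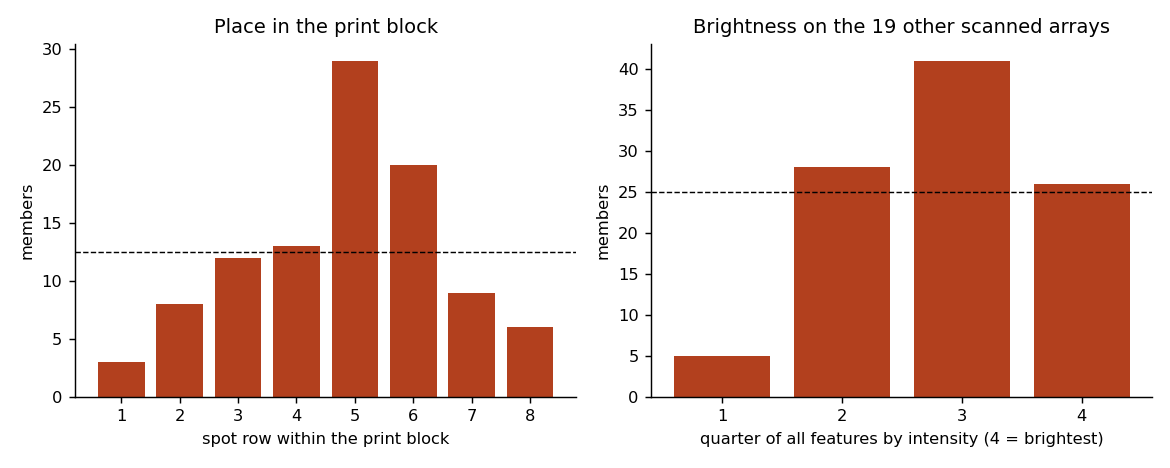
Number of members in each row of spots within the print block (left) and in each of 4 equal groups of all features by mean log2 intensity on the 19 scanned arrays of the other pairings (right). Dashed lines mark the number that an even spread would give, 12.5 in a row and 25 in an intensity group; row 5 holds 29 members and the second brightest group 41.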

How the data were processed

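The deposited values are log2 ratios of Cy5 over Cy3, which the authors made with print-tip loess, per the labels. Their software was LCB Data Warehouse 1.2.10. Recomputing them from the deposited scanner intensity values, without background subtraction, changed no value by more than 0.00337 on the 23 arrays that had a scan of their own. That settled the scale and which scanner channel is divided by which, but it did not check which dye or line each channel held. Column medians lay between -0.0036 and 0.019. All 2688 features entered, without a filter on low values.

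Ratios were turned to asCCR over control, paired spots and dye swaps were averaged, and the 12 means were fitted per pairing with limma 3.58.1 in R 4.3.3, with 6 residual degrees of freedom. In simulated data for A78:4 over 95:88:22, 80.6% of features changed by 0.5 and 100% of those changed by 1 or 2 on the log2 scale were called, among 2688 features. The simulated means were drawn as independent, with the fitted spread of each feature and without shared extracts. These shares check the code and do not give the power in the measured data. Deposited ratios were preferred to scanner values because members are defined on them.

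Named features are the first 2 members by the rule and, in each other pairing, the 2 highest and 2 lowest by mean ratio. Members, list and tests were chosen with earlier results of these data known. Alternatives covered background correction (normexp, offset 50), scaling, ignored spots, dim features, slide lot, replicate block, error term, number of members and replicates left out, and, chosen after seeing the data, centring by position in the block. The mixed model that the labels describe was not run.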

Additional observations from a re-analysis of the deposited data

Results flagged for a closer look

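The 4 arrays of a pairing are 2 replicates with the dyes exchanged and are not independent. Of 27 groups of 4 arrays examined, 1 had an outlying array, where chance gives about 1 in 20 groups if arrays are independent. It was F2756_2868 in A78:5 over 95:88:22, at -0.47 on the array of replicate 1 with A78:5 in Cy5, while the other 3 arrays lay between -0.13 and -0.061. The member medians of single arrays lay on opposite sides of 0 in 2 asCCR lines set beside the same control line, by small amounts. Over the arrays of A78:4 over 95:88:22 the member medians were all above 0, with a median of 0.073, and over those of A78:5 over 95:88:22 all below 0, with a median of -0.025. The array medians were likewise all above 0 in A78:3 over G88:9, with a median of 0.24, where the A78:3 extracts are those of the rule, and all below 0 in A78:5 over G88:9, with a median of -0.042. Neither difference was tested.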

How the results depend on the processing

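No feature was called in the tested pairings under most alternatives, the replicate block included, with 0 called in each of the 3. Exceptions were A78:5 over G88:9, with 1 called with slide lot as a block and 0 to 1 with a replicate left out, and A78:5 over 95:88:22, with 0 to 5 with a replicate left out. A lone replicate is then assumed to vary like the other pairings. No member was among them. With no replicate left out, features with an unadjusted limma p under 0.05 numbered 16 to 356 in A78:4 over 95:88:22. In A78:5 over 95:88:22 they numbered 22 to 87. The count of 356, in either direction, used the spread of A78:4 over 95:88:22 alone and held 34 members higher and 0 lower. The share of all features that were higher in that setting was not counted. Replicate differences of 9 couples of pairings without a shared line had r between -0.450 and 0.542, so the numbers do not settle whether extracts of 1 number belong together.

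The member median in A78:4 over 95:88:22, 0.082, was 0.129 with normexp, 0.129 with scaling between arrays, 0.113 for the 50 highest features and 0.118 for members chosen in normexp values, which kept 76 of the 100; it was 0.060 to 0.10 with a replicate left out. In A78:3 over G88:9, 0.212, it was 0.292 with normexp, 0.161 with scaling, 0.260 and 0.169 for the 50 and the 200 highest, 0.270 for members chosen in normexp values, 0.180 with positions centred, and 0.225 to 0.231 with a replicate left out. Through the other 5 pairings, 0.186, it was 0.110 with scaling, 0.210 and 0.0997 for the 50 and the 200 highest, and 0.137 to 0.158 with a replicate left out. With a replicate left out the medians were -0.16 to -0.0038 in A78:5 over G88:9, -0.058 to -0.012 in A78:5 over 95:88:22 and -0.13 to 0.054 in A78:4 over G88:5, where the main median of -0.020 was 0.0059 with scaling and 0.00052 with positions centred. Settings with scanner values leave out the array without a scan of its own. Members above 0 in both replicates of A78:5 over G88:9 numbered 12 per 100 among the 50 highest features, against 19. The ratios of F4742_4854 and F16_128 in A78:5 over G88:9 turned to -0.024 and -0.096 without replicate 1 and were 0.88 and 0.95 without replicate 2. The cause of these shifts was not tested. Small counts moved too: members above 0 in both replicates of A78:5 over 95:88:22 numbered 6 per 100 among the 50 highest features, against 9, and members below 0 in both replicates of A78:3 over G88:9 numbered 4 with positions centred, against 2.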
